A study of Mus musculus with 24 samples.

Results

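Interferon-stimulated genes were followed in the livers of mice fed a methionine-restricted diet, with or without NRF2 in their hepatocytes. The 44 members were taken by gene symbol from a list of genes that interferons are known to induce, and all 44 were among the 15160 genes listed. That list, the pathway genes and the cell markers were chosen with earlier results of these data known. Their shares set beside those of all genes are therefore descriptive and not independent support. After edgeR's filter on low counts, 43 of the members were among the 13336 genes tested, and Gbp6 was not. The members were kept in 2 arms, 35 genes led mainly by type I interferon and 9 interferon-inducible GTPases led mainly by interferon gamma, of which 8 were tested.

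RNA came from the livers of 24 male mice, with 1 library of the QuantSeq 3′ kit per mouse, so that each read marks the end of a transcript. WT mice were NRF2fl/fl, with both alleles of Nfe2l2 (the gene of NRF2) floxed and no Cre, and NRF2 KO mice were NRF2fl/(alb), in which Cre driven by the Albumin promoter deletes part of Nfe2l2 in hepatocytes and leaves the gene in the other cells of the liver. From 8 weeks of age, mice of each genotype ate a diet of elemental amino acids without cysteine for 8 weeks. Methionine made up 0.17% of it for the MR groups and 0.86% for the Con groups. The mice were 5 months old and fasted for 4 h when the liver was taken. A diet of 8 weeks from 8 weeks of age ends before 5 months, so the full time on the diet is uncertain. Mice WT_CON_7604 and WT_MR_7612 were left out, which left 5 WT and 6 NRF2 KO mice on each diet. Values are CPM, counts scaled to the size of each library after TMM adjustment, and they count transcript ends, so levels are compared between mice and not between genes. A gene was called changed at a Benjamini-Hochberg adjusted p under 0.05 in edgeR's quasi-likelihood test over all 13336 genes, and every adjusted p below is from that test unless another is named. Log2 fold changes are given as the value ± its standard error.

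Interferons are secreted when cells sense foreign or misplaced nucleic acid. Type I interferons act through the receptor IFNAR and the kinases JAK1 and TYK2 to assemble the factor ISGF3, which contains STAT2 and IRF9 and binds the interferon-stimulated response element (ISRE). Interferon gamma acts through its own receptor and on genes with a gamma-activated site (GAS). In liver, hepatocytes, Kupffer cells and endothelial cells can all respond, and many of the induced genes keep a low level without infection.

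Promoter sequences of 33 of the 44 members were found by symbol in the RefSeq table for GRCm38.p6, as windows of 300 bases that run from 250 before to 50 after each annotated start. GAAA, any 2 bases and GAAA again, read on both strands, stood for the ISRE, and TTCNNNGAA, which reads the same on both strands, stood for the GAS. At least 1 ISRE match was present in 17 of the 33 members (51.5%), against 3.99% of all 27025 genes with a promoter and 3.98% of the 9605 tested genes with one. By arm, the ISRE match was found in 11 of 26 type I-led members (42.3%) and in 6 of 7 GTPases (85.7%). The GAS match was found in 8 of the 33 members (24.2%), against 9.55% of all promoters and 8.38% of tested genes, with 5 of 26 in the type I-led arm (19.2%) and 3 of 7 among the GTPases (42.9%). Bst2, Gbp7, Igtp, Irgm2 and Oas1a held both, and in Bst2 the matches overlapped. The windows of 6 genes are shown, 5′ to 3′ on the gene's own strand, with matches in capitals, to set promoters of genes that fell on MR (Ifit3, Rsad2, Irgm1, and Isg15, which fell in the NRF2 KO mice) beside those of Ddx58 and Igtp, which hold the same letters and were not called.
Isg15, chr4:156200769-156201068, minus strand: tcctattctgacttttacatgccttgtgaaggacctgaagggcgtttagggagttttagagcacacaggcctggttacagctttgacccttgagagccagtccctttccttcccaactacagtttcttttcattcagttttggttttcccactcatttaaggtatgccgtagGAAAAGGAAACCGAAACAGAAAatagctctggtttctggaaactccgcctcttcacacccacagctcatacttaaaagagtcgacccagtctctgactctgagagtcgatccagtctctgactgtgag
Ifit3, chr19:34583279-34583578, plus strand: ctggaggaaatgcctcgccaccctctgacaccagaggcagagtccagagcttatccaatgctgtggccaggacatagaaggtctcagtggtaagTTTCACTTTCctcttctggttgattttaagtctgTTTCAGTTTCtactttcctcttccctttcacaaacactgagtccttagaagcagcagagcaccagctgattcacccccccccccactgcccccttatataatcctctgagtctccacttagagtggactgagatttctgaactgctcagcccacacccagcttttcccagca
Rsad2, chr12:26456403-26456702, minus strand: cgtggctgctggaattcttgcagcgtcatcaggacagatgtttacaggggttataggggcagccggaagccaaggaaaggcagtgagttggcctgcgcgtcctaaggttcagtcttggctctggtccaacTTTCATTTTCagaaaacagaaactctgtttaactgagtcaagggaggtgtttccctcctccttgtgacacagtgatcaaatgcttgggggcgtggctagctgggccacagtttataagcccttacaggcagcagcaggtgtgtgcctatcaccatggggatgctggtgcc
Irgm1, chr11:48871371-48871670, minus strand: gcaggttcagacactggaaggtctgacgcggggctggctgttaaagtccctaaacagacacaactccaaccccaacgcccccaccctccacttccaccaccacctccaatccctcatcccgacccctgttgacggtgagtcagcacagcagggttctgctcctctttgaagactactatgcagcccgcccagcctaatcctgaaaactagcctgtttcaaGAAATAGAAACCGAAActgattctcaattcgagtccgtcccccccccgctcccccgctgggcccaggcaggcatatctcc
Ddx58, chr4:40239776-40240075, minus strand: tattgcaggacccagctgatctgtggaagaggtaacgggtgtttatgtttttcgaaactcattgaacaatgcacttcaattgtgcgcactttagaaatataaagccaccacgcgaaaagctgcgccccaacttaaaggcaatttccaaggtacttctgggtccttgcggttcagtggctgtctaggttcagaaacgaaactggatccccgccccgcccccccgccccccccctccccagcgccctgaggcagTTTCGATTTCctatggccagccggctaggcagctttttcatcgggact
Igtp, chr11:58199306-58199605, plus strand: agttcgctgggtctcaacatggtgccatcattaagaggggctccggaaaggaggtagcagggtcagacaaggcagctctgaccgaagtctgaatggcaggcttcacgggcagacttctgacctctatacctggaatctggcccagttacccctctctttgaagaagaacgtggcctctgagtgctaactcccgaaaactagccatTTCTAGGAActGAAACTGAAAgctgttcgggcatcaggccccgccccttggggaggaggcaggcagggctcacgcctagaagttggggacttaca
Isg15 held 3 overlapping matches whose first bases lay 78, 72 and 66 bases before its start, Ifit3 held 2 at 156 and 122 before, Rsad2 held 1 at 120 before, and Irgm1 held overlapping ones at 30 and 24 before. In Igtp the ISRE match began 34 bases and the GAS match 45 bases before the start, and in Ddx58 the match began at base 2 after it. Matches describe the letters of these windows and were not measured as bound sites.

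**Figure D1:**
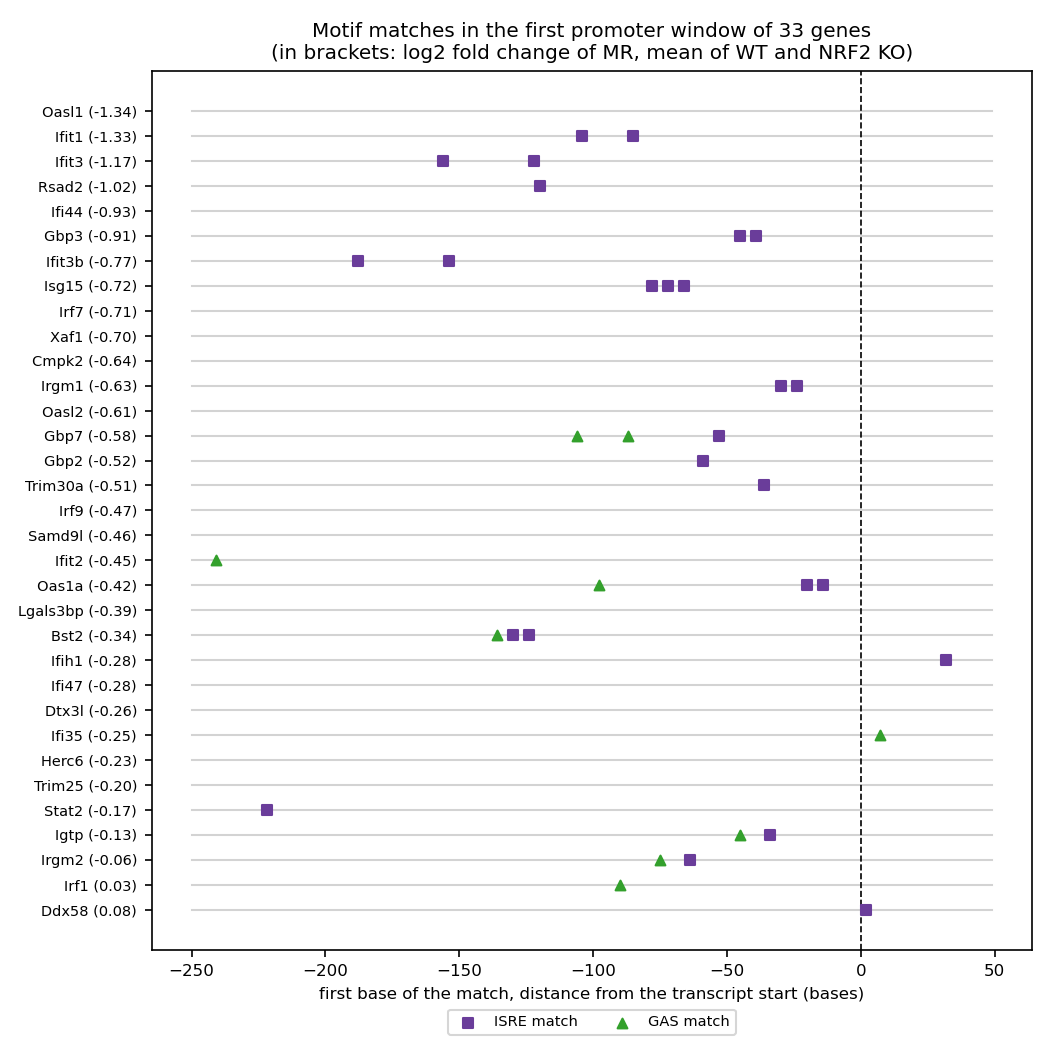
Positions of the ISRE letters (squares) and the GAS letters (triangles) in the first promoter window of 33 members, by the distance in bases of the first base of each match from the annotated start (x axis, dashed line at the start), 1 row per gene. Rows are ordered by the log2 fold change of MR averaged over WT and NRF2 KO, given in brackets. Matches occur both in genes with low values such as Ifit1 and Ifit3 and in Irgm2 and Ddx58 near 0, and those of Isg15 lie at -78, -72 and -66.

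Across the 22 mice, depth ran from 6197291 to 22068338 counts with a median of 15019800. The tissue was liver by its hepatocyte markers, whose 8 genes summed to 74079 to 126758 CPM per mouse. Nfe2l2 itself stood at 204 to 342 CPM in NRF2 KO mice and 95.1 to 126 CPM in WT mice except the library labelled WT_CON_7607, which was at 326 CPM. The counts do not say where in Nfe2l2 the 3′ reads lie, so they were not taken as a measure of the deletion, but the library labelled WT_CON_7607 sits with the NRF2 KO mice on this count. For comparisons that rest on WT Con mice, the number of members called and each call that changed are therefore also given without it. WT_CON_7604 and WT_MR_7612, left out except where all 24 mice are named, lay farthest of all mice from their own groups. The distance was taken in the first principal components of the genes tested, from the mean of the group's other mice.

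On MR, some of the interferon-stimulated genes fell in both genotypes and none rose in either. In WT mice 21 of the 43 tested members fell (48.8%) and 0 rose, where 13.8% of all 13336 genes tested were called and 6.91% fell. The unadjusted p was under 0.05 for 29 members, against 3779 of all 13336 genes. The median log2 fold change of the members was -0.49, against -0.01 for all genes tested, and 41 of 43 members were under 0, against 51% of all genes. In 9 members every MR mouse was below every Con mouse, against 4% of all genes. Without the library labelled WT_CON_7607, 22 members were called and the median was -0.57.

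In NRF2 KO mice 21 of 43 members also fell (48.8%) and 0 rose, where 12.6% of all genes were called and 6.34% fell. The unadjusted p was under 0.05 for 30 members, against 3641 of all 13336 genes. The median log2 fold change was -0.43, against 0.00 for all genes, and 39 of 43 were under 0, against 50.8%. In 14 members no MR mouse reached the lowest Con mouse, against 2.83% of all genes. The MR comparisons in WT and in NRF2 KO share no mice. Of the members, 14 fell in both, which is 66.7% of the calls in each genotype and compares with 2.71% of all genes that fell in both. A further 7 were called in WT alone, 7 in NRF2 KO alone and 15 in neither, and 38 of 43 were under 0 in both. The log2 fold change was lower in WT for 26 members and lower in NRF2 KO for 17.

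**Figure D2:**
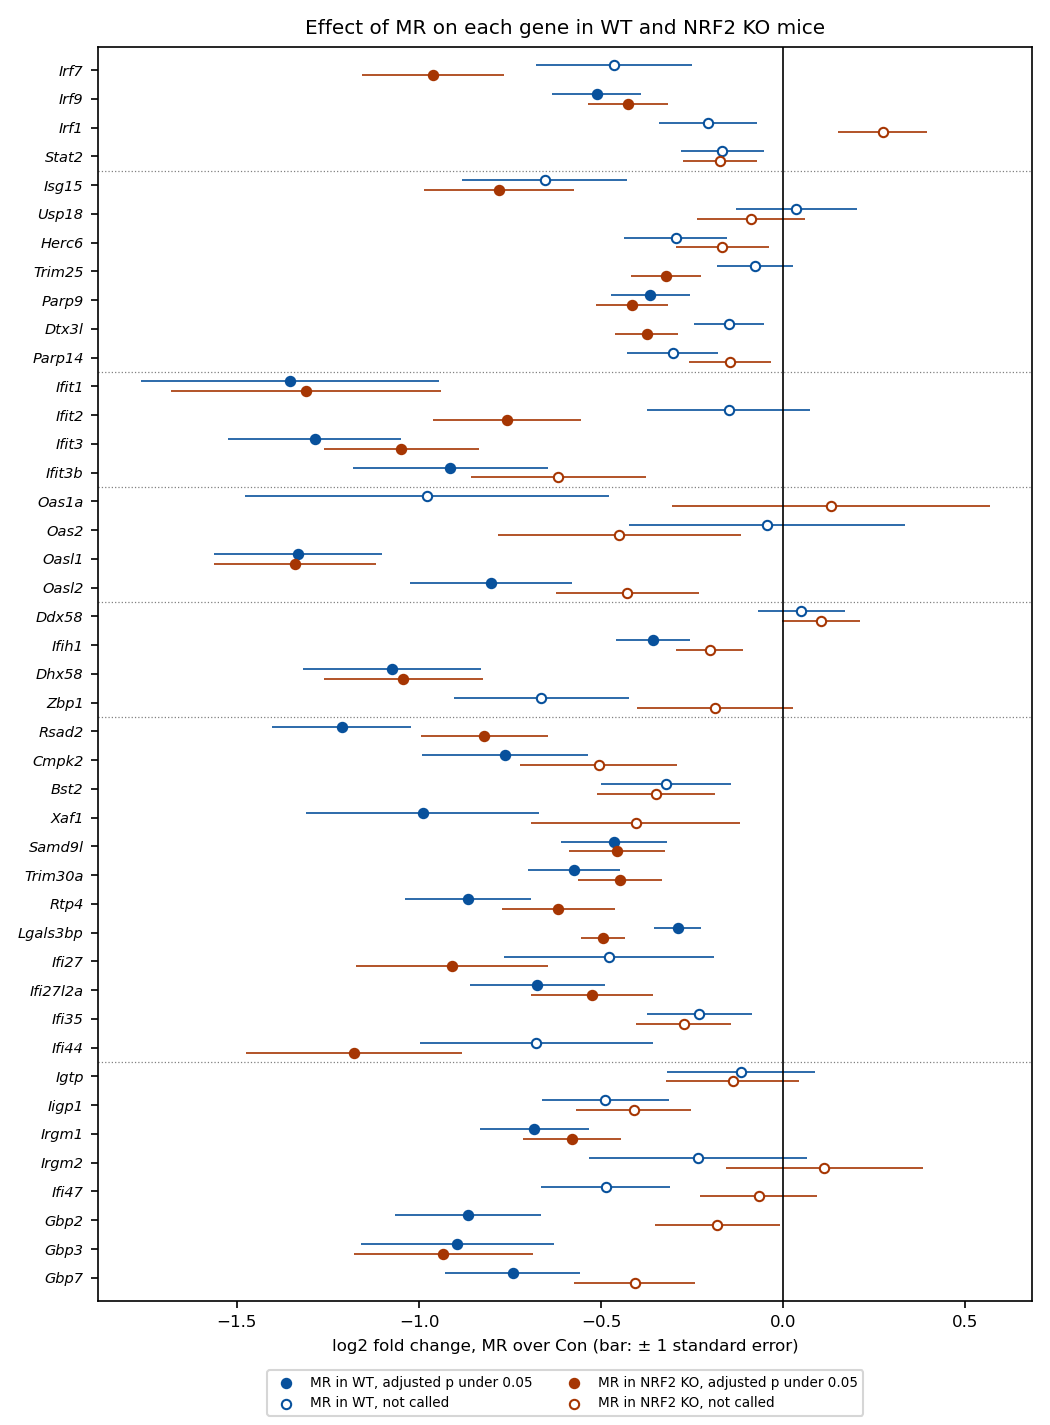
Log2 fold change of MR against Con (x axis) for the 43 tested members in WT and in NRF2 KO mice, with bars of 1 standard error, rows grouped by role, and filled points for an adjusted p under 0.05. All but 2 members lie under 0 in WT and all but 4 in NRF2 KO, with Ifit1, Oasl1, Ifit3 and Rsad2 the farthest from 0 in WT.

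**Figure D3:**
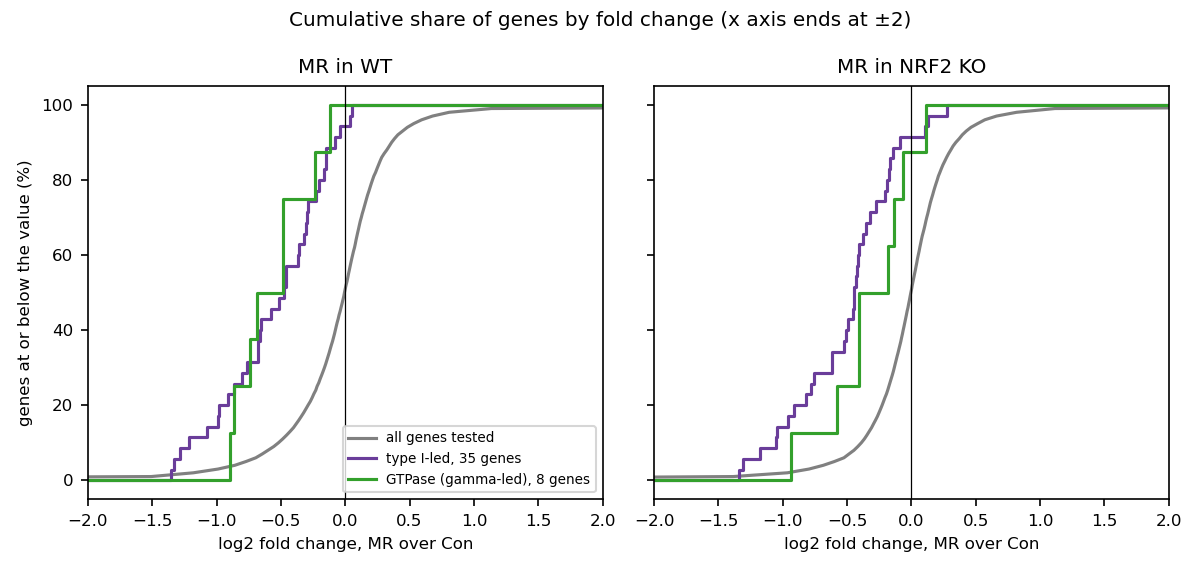
Cumulative share of genes (y axis, %) at or below each log2 fold change of MR against Con (x axis, from -2 to 2) for the 35 type I-led members, the 8 GTPases tested and all 13336 genes tested, 1 panel per genotype. Both arms lie to the left of all genes, with medians of -0.48 and -0.59 in WT and -0.45 and -0.29 in NRF2 KO.

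Whole liver holds several cell types, and fewer cells of a type and less RNA per cell cannot be told apart in it. Marker genes of Kupffer cells and macrophages were also lower on MR. Of 11 such markers 10 were listed (Clec4f was not), and 6 fell in WT and 3 in NRF2 KO, with medians of -0.44 and -0.26. Their summed level was 448 to 584 CPM in WT Con, 346 to 394 CPM in WT MR, 375 to 562 CPM in NRF2 KO Con and 329.9 to 444 CPM in NRF2 KO MR mice. The WT ranges did not overlap and the NRF2 KO ranges did. Stellate cell markers fell for 4 of 6 genes in WT and 3 in NRF2 KO, and bile duct markers for 4 of 5 and 1. Of 6 endothelial markers 0 fell in either genotype and 1 rose in NRF2 KO. Of the 8 hepatocyte markers 1 fell in each genotype, with medians of -0.22 in WT and -0.13 in NRF2 KO. Their summed level also had a lower median on MR, at 104431 CPM in WT Con and 81821 CPM in WT MR mice. In NRF2 KO mice it was 117567 CPM on Con and 98630 CPM on MR. The ranges of Con and MR mice overlapped in both genotypes. Of 5 markers of plasmacytoid dendritic cells, the main makers of type I interferon, 3 were listed and 1 fell in WT and 0 in NRF2 KO. T and NK cell markers and B cell markers were low, at 2.25 to 5.98 CPM and 1.31 to 3.79 CPM summed, and 0 were called. Neutrophil markers fell for 1 of 3 listed in WT and 0 in NRF2 KO. Beside these marker counts, 6.91% of all genes tested fell in WT and 6.34% in NRF2 KO. The part of these cell types in the fall of the members was not tested.

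The type I-led and the GTPase arm each held members that fell in both genotypes. Of 35 type I-led members, 17 fell in WT and 19 in NRF2 KO, with medians of -0.48 and -0.45. Of the 8 GTPases tested, 4 fell in WT and 2 in NRF2 KO, with medians of -0.59 and -0.29. No test of the difference between the arms was made. The mean log2 CPM of all tested members was 4.03 ± 0.22 (SD, n = 5) on Con and 3.47 ± 0.28 (SD, n = 5) on MR in WT mice. It was 3.94 ± 0.10 (SD, n = 6) on Con and 3.47 ± 0.20 (SD, n = 6) on MR in the NRF2 KO mice. In WT the means of single mice ran from 3.16 to 3.83 on MR and from 3.72 to 4.26 on Con, which overlapped. In NRF2 KO they ran from 3.20 to 3.73 on MR and from 3.78 to 4.03 on Con, which did not.

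Mice of a group tended to be high or low over many members at once. WT_CON_7607 had the lowest value of its group for 23 of the members and WT_CON_7608 for 12, while WT_CON_7602 and WT_CON_7603 were each highest for 14. WT_MR_7611 was highest for 27, and WT_MR_7609 and WT_MR_7615 were lowest for 20 and 14. KO_MR_7628 was highest for 19 and KO_MR_7629 lowest for 20. Members of 1 mouse are therefore not separate observations, and the counts of members describe the same mice over and over.

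**Figure D4:**
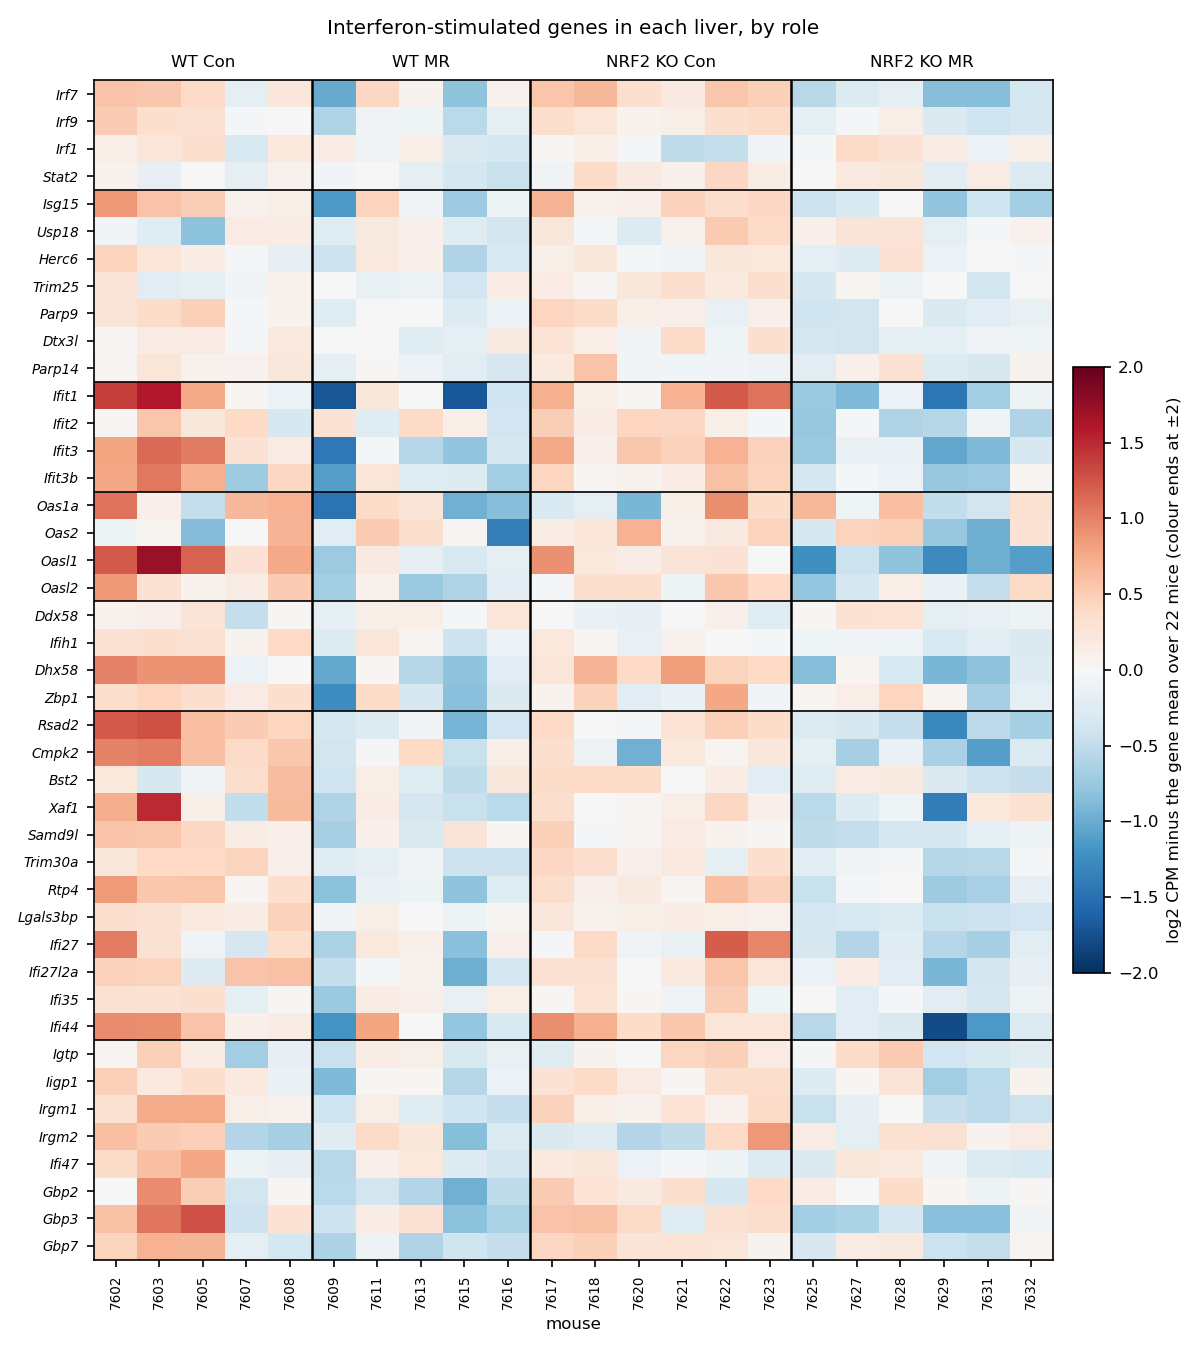
Log2 CPM of each tested member in each of the 22 mice, centred on the mean of that gene over all mice, with mice in columns by group and genes in rows by role. MR columns are mostly below the gene means in both genotypes, and single mice such as WT_MR_7611 and WT_CON_7607 depart from their group over many rows.

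Among the 4 transcription factors, Irf9 fell in both genotypes, Irf7 fell in NRF2 KO mice, and Irf1 and Stat2 were not called. Irf9 encodes the DNA-binding subunit of ISGF3. It was at 39.7, 41.3, 50.8, 51.1 and 58.2 CPM in the WT Con mice and at 26.96, 28.03, 36.00, 38.4 and 39.01 CPM in the WT MR mice. Every WT MR mouse was below every WT Con mouse (-0.51 ± 0.12, adjusted p = 0.00669). Irf9 in NRF2 KO mice ran from 43.2 to 53.2 CPM with a median of 49.9 on Con and from 30.9 to 45.1 CPM with a median of 34.7 on MR, with overlap (-0.43 ± 0.11, adjusted p = 0.0124). The annotated Irf9 overlaps Rnf31 on the same strand, so reads of that pair could be divided by the authors' counting. Irf7, the factor that amplifies type I interferon production, was at 18.5, 24.6, 27.2, 30.3 and 31.1 CPM in WT Con and 10.4, 11.9, 21.9, 22.2 and 27.9 CPM in WT MR mice. Those groups overlapped and the difference was not called (-0.46 ± 0.21, adjusted p = 0.154), though it was called without WT_MR_7611 (log2 fold change -0.66, adjusted p = 0.0433). Irf7 in NRF2 KO mice ran from 23.6 to 33.2 CPM with a median of 29.9 on Con and from 11.5 to 18.4 CPM with a median of 15.3 on MR. Here no MR mouse reached the lowest Con mouse (-0.96 ± 0.19, adjusted p = 0.00287).

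Irf1, a factor shared by the type I and gamma responses, was the member with the highest log2 fold change in NRF2 KO mice. It was at 33.7, 45.6, 48.4, 49.3 and 52.8 CPM in WT Con and 32.7, 34.4, 39.9, 45.5 and 46.4 CPM in WT MR mice (-0.21 ± 0.13, adjusted p = 0.338). Irf1 in NRF2 KO mice ran from 29.4 to 45.8 CPM with a median of 40.2 on Con and from 38.7 to 54.4 CPM with a median of 45.9 on MR (0.27 ± 0.12, adjusted p = 0.144). The MR effects differed by 0.48 ± 0.18 between genotypes, with an adjusted p of 0.509 for the interaction, so a difference was not called. Stat2, the ISGF3 subunit that carries the activation domain, was at 17.99, 18.2, 20.6, 21.5 and 21.8 CPM in WT Con and 14.9, 15.97, 17.8, 19.7 and 20.3 CPM in WT MR mice, with overlap (-0.17 ± 0.11, adjusted p = 0.364). Stat2 in NRF2 KO mice ran from 19.6 to 27.4 CPM with a median of 23.1 on Con and from 16.8 to 23.9 CPM with a median of 21.7 on MR (-0.17 ± 0.10, adjusted p = 0.29).

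Of the 7 genes of the ISG15 system and ADP-ribosylation, 1 fell in WT (Parp9) and 4 in NRF2 KO (Isg15, Parp9, Trim25 and Dtx3l). Isg15 encodes the ubiquitin-like protein that is attached to other proteins after interferon. It was at 28.8, 29.4, 38.5, 40.2 and 49.5 CPM in WT Con and 12.2, 16.4, 25.3, 26.2 and 36.9 CPM in WT MR mice. The WT groups overlapped through WT_MR_7611, the highest MR mouse, and the difference missed the threshold (-0.65 ± 0.23, adjusted p = 0.0587) but was called without WT_MR_7611 (log2 fold change -0.89, adjusted p = 0.00973). Isg15 in NRF2 KO mice ran from 29.00 to 43.5 CPM with a median of 35.4 on Con and from 15.7 to 26.9 CPM with a median of 20.4 on MR, all MR mice lower (-0.78 ± 0.21, adjusted p = 0.0169).

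Parp9 and Dtx3l encode an ADP-ribosyltransferase and the ubiquitin ligase it pairs with, and they lie with Parp14 at chr16:35832874-35972605. Parp9 was at 26.8, 28.6, 32.8, 35.3 and 38.4 CPM in WT Con and 22.9, 23.04, 25.1, 27.1 and 27.2 CPM in WT MR mice, with overlap (-0.36 ± 0.11, adjusted p = 0.0268). That call was lost without WT_CON_7603, WT_CON_7605, WT_MR_7609, WT_MR_7615 or WT_MR_7616 (log2 fold change -0.36 to -0.30, adjusted p 0.0526 to 0.0823). Parp9 in NRF2 KO mice ran from 24.7 to 36.8 CPM with a median of 29.6 on Con and from 20.7 to 27.1 CPM with a median of 22.9 on MR (-0.41 ± 0.10, adjusted p = 0.00727). Dtx3l gave -0.15 ± 0.10, adjusted p = 0.332 in WT and -0.37 ± 0.09, adjusted p = 0.00645 in NRF2 KO, where it ran from 35.6 to 49.5 CPM with a median of 43.6 on Con and from 29.3 to 35.99 CPM with a median of 33.3 on MR. Trim25, the ligase that activates RIG-I, gave -0.08 ± 0.10, adjusted p = 0.683 in WT, where it ran from 60.1 to 83.6 CPM with a median of 67.4 on Con and from 53.3 to 77.4 CPM with a median of 65.2 on MR. Trim25 in NRF2 KO mice ran from 70.95 to 87.5 CPM with a median of 80.7 on Con and from 53.9 to 72.7 CPM with a median of 67.6 on MR (-0.32 ± 0.10, adjusted p = 0.0274), and the call was lost without KO_CON_7621, KO_MR_7625 or KO_MR_7631 (log2 fold change -0.30 to -0.27, adjusted p 0.0588 to 0.0715). Usp18, which removes ISG15 and restrains IFNAR, gave log2 fold changes of 0.04 and -0.09 in WT and NRF2 KO, and the ligase Herc6 gave -0.30 and -0.17. Parp14 gave -0.30 and -0.15. None of these last was called.

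The IFIT proteins, which bind viral RNA, gave the lowest median of the role groups in both genotypes, -1.10 in WT and -0.90 in NRF2 KO. Their 4 genes lie side by side at chr19:34550694-34650009, and 3 fell in WT and 3 in NRF2 KO. Ifit3 was at 10.1, 10.9, 15.6, 18.5 and 19.8 CPM in WT Con and 3.25, 5.12, 5.97, 6.99 and 8.83 CPM in WT MR mice. No mice overlapped, and Ifit3 was 2.44-fold lower (-1.29 ± 0.24, adjusted p = 0.00114). Ifit3 in NRF2 KO mice ran from 9.64 to 15.2 CPM with a median of 12.7 on Con and from 4.30 to 8.12 CPM with a median of 6.20 on MR, again with no overlap, 2.07-fold lower (-1.05 ± 0.21, adjusted p = 0.00269). Both calls held without each mouse in turn. Of the 50-base stretches in the last 500 bases of Ifit3, 14.9% also occur in Ifit3b, so the division of reads between these copies is uncertain.

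Ifit1 had the largest fold of all members in WT and the second largest in NRF2 KO, with wide spread. WT Con mice stood at 13.8, 15.4, 25.4, 39.3 and 45.6 CPM and WT MR mice at 4.45, 4.52, 11.3, 14.96 and 17.5 CPM. WT_CON_7608 and WT_CON_7607 lay within the MR range, and the fold was 2.56 (-1.36 ± 0.41, adjusted p = 0.0336). The WT call was lost without WT_CON_7602, WT_CON_7603, WT_MR_7609, WT_MR_7615 or WT_MR_7616 (log2 fold change -1.37 to -1.11, adjusted p 0.0595 to 0.0923). Ifit1 in NRF2 KO mice ran from 15.1 to 35.1 CPM with a median of 24.4 on Con and from 5.43 to 13.97 CPM with a median of 9.04 on MR, with no overlap and a fold of 2.48 (-1.31 ± 0.37, adjusted p = 0.0264). The NRF2 KO call was lost without KO_MR_7625, KO_MR_7627, KO_MR_7629 or KO_MR_7631 (log2 fold change -1.29 to -1.18, adjusted p 0.0508 to 0.063). Ifit2 gave -0.15 ± 0.22, adjusted p = 0.712 in WT and -0.76 ± 0.20, adjusted p = 0.0156 in NRF2 KO, with every MR mouse lower there. Ifit3b gave -0.91 ± 0.27, adjusted p = 0.0249 in WT and -0.62 ± 0.24, adjusted p = 0.0915 in NRF2 KO. The WT call of Ifit3b was lost without WT_CON_7603, WT_MR_7609 or WT_MR_7616 (log2 fold change -0.83 to -0.75, adjusted p 0.0622 to 0.0728), and its difference in NRF2 KO was called without WT_CON_7607 (log2 fold change -0.62, adjusted p = 0.0382).

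In the OAS family, of enzymes and enzyme-like proteins that bind double-stranded RNA, Oasl1 fell in both genotypes and Oasl2 in WT. Oasl1 encodes a member without 2′-5′ oligoadenylate synthase activity that holds back translation of Irf7. It was at 5.49, 7.65, 10.3, 10.7 and 15.2 CPM in WT Con and 2.66, 3.62, 3.97, 3.98 and 5.09 CPM in WT MR mice. All MR mice were lower, 2.52-fold in the fit (-1.33 ± 0.23, adjusted p = 0.000531). Oasl1 in NRF2 KO mice ran from 4.51 to 8.54 CPM with a median of 5.32 on Con and from 1.79 to 3.32 CPM with a median of 2.13 on MR, again with no overlap and 2.53-fold lower (-1.34 ± 0.22, adjusted p = 0.000402). The MR effects of Oasl1 differed by -0.01 on the log2 scale between genotypes, with a 95% interval of -0.55 to 0.53. Both calls held without each mouse in turn.

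Oasl2, its neighbour at chr5:114896936-114937915, was at 3.44, 3.61, 4.03, 4.71 and 6.07 CPM in WT Con and 1.90, 1.99, 2.11, 2.76 and 3.48 CPM in WT MR mice, with overlap (-0.80 ± 0.22, adjusted p = 0.0179). The call was lost without WT_MR_7609 (log2 fold change -0.72, adjusted p = 0.0502). Oasl2 in NRF2 KO mice ran from 3.04 to 4.81 CPM with a median of 4.11 on Con and from 1.85 to 4.27 CPM with a median of 2.76 on MR (-0.43 ± 0.20, adjusted p = 0.158). Oas2 gave log2 fold changes of -0.04 in WT and -0.45 in NRF2 KO and Oas1a gave -0.98 and 0.13, none called. Oas1a is uncertain, since 56.1% of its last 50-base stretches are shared with Oas1g.

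The nucleic acid sensors did not move as 1 group. Dhx58 (LGP2), which tunes the RNA sensors RIG-I and MDA5, was at 3.47, 3.78, 7.15, 7.15 and 7.60 CPM in WT Con and 1.79, 2.11, 2.51, 3.19 and 3.84 CPM in WT MR mice. It fell in WT, where the lowest Con mice, WT_CON_7607 and WT_CON_7608, overlapped the highest MR mouse (-1.07 ± 0.24, adjusted p = 0.00501). Dhx58 in NRF2 KO mice ran from 4.50 to 6.81 CPM with a median of 5.09 on Con and from 1.95 to 3.86 CPM with a median of 2.56 on MR, with all MR mice lower (-1.04 ± 0.22, adjusted p = 0.00288). Ddx58 (RIG-I) itself was at 17.8, 25.2, 26.03, 26.5 and 29.6 CPM in WT Con and 21.9, 24.3, 26.96, 27.2 and 29.3 CPM in WT MR mice. In NRF2 KO it ran from 20.9 to 26.5 CPM with a median of 23.7 on Con and from 21.7 to 30.4 CPM with a median of 24.1 on MR. Its groups lay over each other in both genotypes, with log2 fold changes of 0.05 (95% interval -0.18 to 0.28) and 0.10 (-0.11 to 0.32). Without the library labelled WT_CON_7607 the WT value of Ddx58 was -0.046.

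Ifih1 (MDA5), the sensor of long double-stranded RNA, was at 25.4, 29.8, 29.9, 30.6 and 31.9 CPM in WT Con and 18.2, 19.98, 22.4, 25.2 and 28.7 CPM in WT MR mice. It fell in WT (-0.36 ± 0.10, adjusted p = 0.0203), a call lost without WT_CON_7608, WT_MR_7609 or WT_MR_7615 (log2 fold change -0.32 to -0.29, adjusted p 0.05002 to 0.062). Ifih1 in NRF2 KO mice ran from 21.8 to 28.2 CPM with a median of 24.7 on Con and from 19.6 to 23.3 CPM with a median of 21.8 on MR (-0.20 ± 0.09, adjusted p = 0.154). Zbp1, a sensor of Z-form nucleic acid, ran from 5.85 to 7.07 CPM with a median of 6.64 in WT Con and from 2.12 to 6.80 CPM with a median of 4.15 in WT MR mice. Its difference missed the threshold in WT (-0.66 ± 0.24, adjusted p = 0.0677) and was called without WT_MR_7611 or KO_CON_7622 (log2 fold change -0.98 to -0.66, adjusted p 0.00871 to 0.0499). In NRF2 KO mice Zbp1 gave -0.19 ± 0.21, adjusted p = 0.623.

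Of the 12 other antiviral effectors, 8 fell in WT and 8 in NRF2 KO, with medians of -0.62 and -0.50. Rsad2 (viperin), which makes a chain-terminating nucleotide, was at 22.6, 23.8, 25.7, 39.3 and 40.9 CPM in WT Con and 8.74, 12.8, 13.1, 14.02 and 16.1 CPM in WT MR mice. No mice overlapped, and Rsad2 was 2.32-fold lower (-1.21 ± 0.19, adjusted p = 0.000251), the smallest adjusted p of the members in WT. Rsad2 in NRF2 KO mice ran from 16.5 to 23.3 CPM with a median of 21.02 on Con and from 6.81 to 13.8 CPM with a median of 11.9 on MR, with no overlap and 1.77-fold lower (-0.82 ± 0.17, adjusted p = 0.00362). Both calls held without each mouse in turn. Its neighbour Cmpk2, a mitochondrial nucleotide kinase that shares the interval chr12:26442746-26479837, gave -0.76 ± 0.23, adjusted p = 0.0266 in WT and -0.51 ± 0.22, adjusted p = 0.125 in NRF2 KO. The WT call of Cmpk2 was lost without WT_CON_7602, WT_CON_7603, WT_MR_7609, WT_MR_7611 or WT_MR_7615 (log2 fold change -0.76 to -0.68, adjusted p 0.0512 to 0.0719), and its difference in NRF2 KO was called without KO_CON_7620 (log2 fold change -0.66, adjusted p = 0.0324).

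Ifi44, an interferon-induced cytoplasmic protein, was at 10.6, 10.9, 14.7, 18.8 and 19.01 CPM in WT Con and 4.25, 5.73, 7.94, 9.77 and 17.1 CPM in WT MR mice. The highest MR value was that of WT_MR_7611, and the WT difference was not called (-0.68 ± 0.32, adjusted p = 0.171) unless WT_MR_7611 (log2 fold change -1.09, adjusted p = 0.0227) was left out. Ifi44 in NRF2 KO mice ran from 11.6 to 18.9 CPM with a median of 13.6 on Con and from 2.77 to 8.49 CPM with a median of 7.36 on MR, all MR mice lower (-1.18 ± 0.30, adjusted p = 0.0133). Ifi27, which encodes a membrane protein of mitochondria and the nuclear envelope, was at 80.99, 97.3, 127, 131 and 208 CPM in WT Con and 57.1, 65.5, 109.5, 110.1 and 119 CPM in WT MR mice (-0.48 ± 0.29, adjusted p = 0.297). Ifi27 in NRF2 KO mice ran from 92.5 to 236 CPM with a median of 118 on Con and from 64.7 to 88.7 CPM with a median of 75.4 on MR, and every MR mouse was lower (-0.91 ± 0.26, adjusted p = 0.0297). This call was lost without KO_CON_7622, KO_CON_7623, KO_MR_7627, KO_MR_7629 or KO_MR_7631 (log2 fold change -0.88 to -0.71, adjusted p 0.0559 to 0.0637). Bst2 (tetherin), which holds budding virus at the cell surface, ran from 60.1 to 115 CPM with a median of 86.1 in WT Con and from 52.3 to 87.6 CPM with a median of 63.3 in WT MR mice (-0.32 ± 0.18, adjusted p = 0.247). Bst2 in NRF2 KO mice ran from 64.8 to 97.98 CPM with a median of 89.3 on Con and from 54.1 to 84.9 CPM with a median of 62.2 on MR (-0.35 ± 0.16, adjusted p = 0.164), and it was called in neither genotype.

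Lgals3bp, which encodes a secreted glycoprotein that binds galectins, varied little among the mice of a group. It was at 63.6, 66.02, 70.5, 72.4 and 78.9 CPM in WT Con and 53.5, 55.6, 57.4, 58.7 and 62.1 CPM in WT MR mice, with all MR mice lower (-0.29 ± 0.07, adjusted p = 0.00464). Lgals3bp in NRF2 KO mice ran from 60.2 to 67.4 CPM with a median of 62.6 on Con and from 41.97 to 47.4 CPM with a median of 44.6 on MR, again without overlap (-0.49 ± 0.06, adjusted p = 1.19e-05), the smallest adjusted p of the members there. The change was small in fold, 1.22 in WT and 1.41 in NRF2 KO.

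The remaining effectors are given by their fits, in WT and then in NRF2 KO. Trim30a, a ligase of the tripartite motif family, gave -0.57 ± 0.13, adjusted p = 0.00405 and -0.45 ± 0.11, adjusted p = 0.0117. Rtp4, a chaperone of membrane receptors, gave -0.86 ± 0.17, adjusted p = 0.00208 and -0.62 ± 0.16, adjusted p = 0.0121. Both genes fell in both genotypes and kept the calls without each mouse in turn. Ifi27l2a, which lies beside Ifi27 at chr12:103434211-103443680, gave -0.67 ± 0.19, adjusted p = 0.0176 and -0.53 ± 0.17, adjusted p = 0.0405, and its NRF2 KO call was lost without KO_CON_7617, KO_CON_7618, KO_CON_7621, KO_CON_7622, KO_MR_7625, KO_MR_7628, KO_MR_7629, KO_MR_7631 or KO_MR_7632 (log2 fold change -0.55 to -0.42, adjusted p 0.0519 to 0.0981). Samd9l, a restriction factor, gave -0.46 ± 0.15, adjusted p = 0.0338 and -0.46 ± 0.13, adjusted p = 0.0241. The Samd9l calls were lost in WT without WT_CON_7602, WT_CON_7603, WT_CON_7605, WT_MR_7609 or WT_MR_7613 (log2 fold change -0.45 to -0.34, adjusted p 0.0599 to 0.105) and in NRF2 KO without KO_CON_7617 or KO_MR_7625 (log2 fold change -0.42 to -0.36, adjusted p 0.0576 to 0.0836). Xaf1, which promotes apoptosis, gave -0.99 ± 0.32, adjusted p = 0.0396 and -0.40 ± 0.29, adjusted p = 0.391, and its WT call was lost without WT_CON_7602, WT_CON_7603, WT_CON_7608, WT_MR_7609, WT_MR_7613, WT_MR_7615 or WT_MR_7616 (log2 fold change -0.98 to -0.68, adjusted p 0.0582 to 0.146). Ifi35 gave log2 fold changes of -0.23 and -0.27 and was not called.

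The interferon-inducible GTPases comprise the immunity-related GTPases (Irgm1, Irgm2, Igtp, Iigp1 and Ifi47) and the guanylate-binding proteins (Gbp2, Gbp3, Gbp6 and Gbp7), which act on the vacuoles of intracellular microbes. Irgm1, a regulator of the other immunity-related GTPases, was at 9.37, 9.61, 10.97, 14.8 and 14.9 CPM in WT Con and 6.39, 6.63, 6.64, 7.43 and 9.56 CPM in WT MR mice. It fell in WT with slight overlap (-0.68 ± 0.15, adjusted p = 0.00369). Irgm1 in NRF2 KO mice ran from 9.24 to 12.2 CPM with a median of 10.2 on Con and from 6.07 to 8.87 CPM with a median of 6.48 on MR, with no overlap (-0.58 ± 0.14, adjusted p = 0.00645). Iigp1, an effector of the same family, was at 402, 505, 506, 555 and 611 CPM in WT Con and 238, 297, 405, 447 and 451 CPM in WT MR mice. Its difference missed the threshold in WT (-0.49 ± 0.17, adjusted p = 0.0629) and was called without WT_CON_7608, WT_MR_7611, WT_MR_7613 or KO_MR_7629 (log2 fold change -0.57 to -0.49, adjusted p 0.0406 to 0.0464). Iigp1 in NRF2 KO mice ran from 449 to 573 CPM with a median of 543 on Con and from 272 to 524 CPM with a median of 409 on MR (-0.41 ± 0.16, adjusted p = 0.0902), called without KO_MR_7628 (log2 fold change -0.51, adjusted p = 0.045).

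Igtp and Irgm2, whose annotated models overlap on the same strand at chr11:58199556-58222782, gave log2 fold changes of -0.12 and -0.23 in WT and -0.14 and 0.11 in NRF2 KO, none called. Ifi47 gave -0.49 ± 0.18, adjusted p = 0.0694 in WT and -0.07 ± 0.16, adjusted p = 0.838 in NRF2 KO, and its WT difference was called without WT_CON_7607, WT_CON_7608 or WT_MR_7613 (log2 fold change -0.59 to -0.58, adjusted p 0.0277 to 0.0442). So within the immunity-related GTPases Irgm1 was the gene called in either genotype.

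The guanylate-binding protein genes Gbp7, Gbp3 and Gbp2 lie together at chr3:142530342-142638008, and all 3 fell in WT. Gbp3 was at 2.46, 4.08, 5.04, 7.07 and 8.25 CPM in WT Con and 1.81, 2.07, 2.46, 3.69 and 4.06 CPM in WT MR mice, with overlap (-0.89 ± 0.27, adjusted p = 0.0266). That call was lost without WT_CON_7603, WT_CON_7605, WT_MR_7609, WT_MR_7615 or WT_MR_7616 (log2 fold change -0.84 to -0.68, adjusted p 0.0612 to 0.091). Gbp3 in NRF2 KO mice ran from 2.78 to 5.00 CPM with a median of 4.31 on Con and from 1.79 to 3.19 CPM with a median of 2.05 on MR and fell as well (-0.93 ± 0.25, adjusted p = 0.0143). Gbp7 was at 25.2, 28.3, 43.9, 51.8 and 52.5 CPM in WT Con and 20.9, 21.2, 23.5, 24.6 and 29.97 CPM in WT MR mice, where WT_CON_7608 and WT_CON_7607 overlapped the highest MR mouse (-0.74 ± 0.19, adjusted p = 0.0107). Gbp7 in NRF2 KO mice ran from 33.7 to 44.8 CPM with a median of 38.8 on Con and from 23.1 to 37.1 CPM with a median of 29.6 on MR and was not called (-0.41 ± 0.17, adjusted p = 0.111). Gbp2, singled out after its values were seen, was at 3.25, 4.24, 4.29, 5.95 and 8.21 CPM in WT Con and 2.11, 2.77, 2.85, 2.94 and 3.22 CPM in WT MR mice, all MR mice lower (-0.87 ± 0.20, adjusted p = 0.00588). Gbp2 in NRF2 KO mice ran from 3.36 to 6.05 CPM with a median of 5.22 on Con and from 3.89 to 5.48 CPM with a median of 4.29 on MR (-0.18 ± 0.17, adjusted p = 0.547). Gbp6 was listed but not tested, with counts of 4 to 7 in WT Con, 0 to 8 in WT MR, 1 to 8 in NRF2 KO Con and 3 to 7 in NRF2 KO MR mice. It also shares 77.8% of its last 50-base stretches with Gbp9, Gbp10 and Gm43302.

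**Figure D5:**
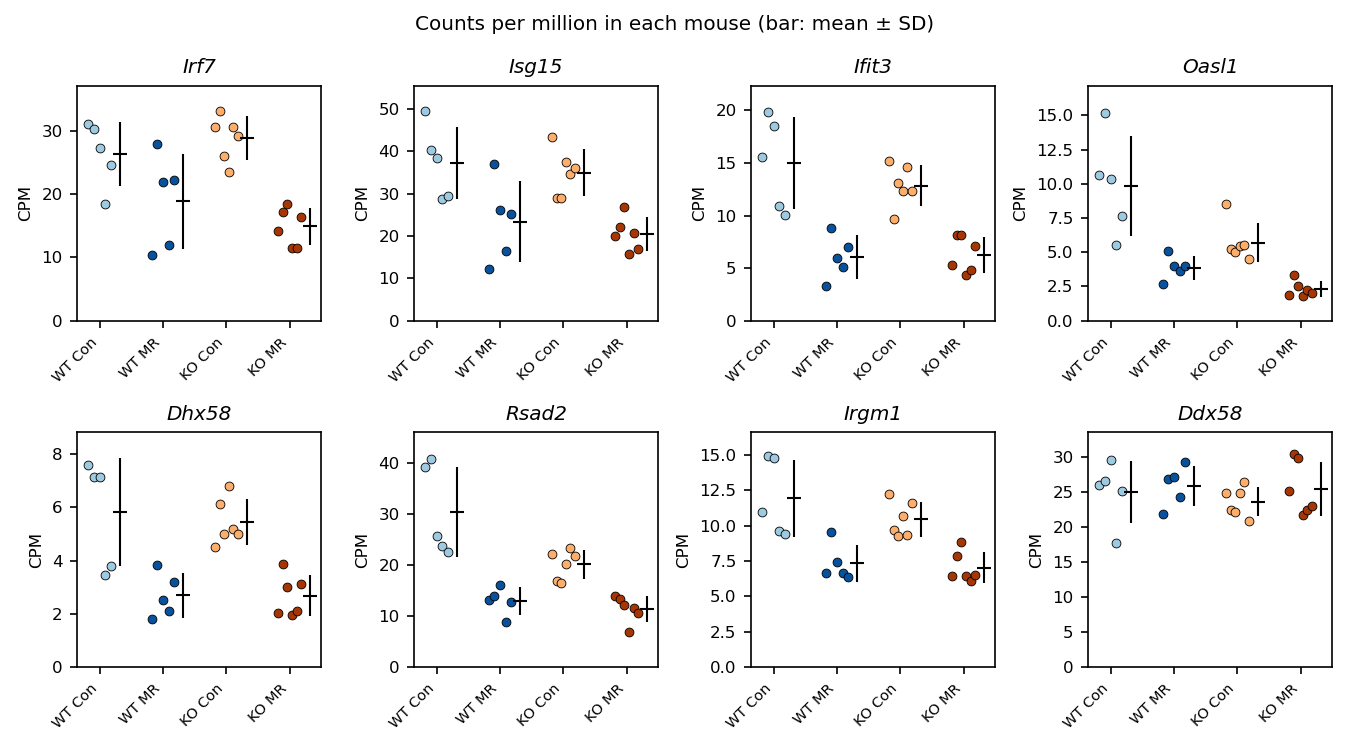
CPM in each mouse (points) with the group mean and SD (bars) for 8 members, 1 panel per gene with its own axis from 0, for each genotype and diet. Ifit3, Oasl1 and Rsad2 separate Con from MR in both genotypes, and Ddx58 does not.

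Leaving out each of the 22 mice in turn, 12 of the 21 WT calls held in every fit and 9 were lost in at least 1, and 6 members not called with all mice were called in at least 1 fit. In NRF2 KO 16 of the 21 calls held in every fit, 5 were lost in at least 1, and 3 others were called in at least 1. The count of members called in WT ran from 12 without WT_MR_7609 to 25 without WT_MR_7611, and was 14 without WT_CON_7603. Among the members given with full values, scaling by library size only ended the calls of Irf9, Dtx3l and Trim25 in NRF2 KO and of Parp9, Ifih1 and Lgals3bp in WT. A fit of only the groups compared ended those of Ifit1, Ifih1, Gbp3 and Gbp7 in WT, and the use of all 24 mice ended that of Dtx3l in NRF2 KO. Calls were gained in WT by Iigp1 in DESeq2, by Zbp1 in DESeq2, in limma and with all 24 mice, and by Isg15 in these and with at least 10 counts in every mouse. In NRF2 KO, Gbp7 was called in the fit of only the groups compared (adjusted p = 0.0371) and Irf1 was called higher with library size only.

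The genotypes were then compared within each diet. On Con, 0 of 43 members differed between NRF2 KO and WT in edgeR's test, where 2.07% of all genes were called, and 0 in limma. In DESeq2 3 were lower (Oasl1, Rsad2 and Cmpk2), where 444 of 15160 genes were called. In edgeR the unadjusted p was under 0.05 for 9 members, against 1917 of all 13336 genes, and the median log2 fold change was -0.10. Oasl1 came nearest (-0.77 ± 0.21, adjusted p = 0.0501), at 9.87 ± 3.66 CPM (SD, n = 5) in WT and 5.70 ± 1.44 CPM (SD, n = 6) in NRF2 KO mice. Without the library labelled WT_CON_7607 it was called, at -0.92 with an adjusted p of 0.00865, and was the 1 member called, with -0.67 for Rsad2 (adjusted p = 0.0537) and -0.81 for Cmpk2 (adjusted p = 0.0519). Oasl1 was also called without WT_CON_7608 (-0.86, adjusted p = 0.0432) and without KO_CON_7617 (-0.95, adjusted p = 0.0134). Leaving out WT_MR_7609, WT_MR_7611 or KO_MR_7627 also gave a call of Oasl1, and leaving out KO_MR_7629 gave a call of Rsad2 (-0.59, adjusted p = 0.0417). Cmpk2 gave -0.73 ± 0.21, adjusted p = 0.0716, with every NRF2 KO Con mouse below every WT Con mouse, against 0.885% of all genes with that order.

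On MR, 1 member differed between the genotypes in edgeR's test, where 1.93% of all genes were called. Lgals3bp was lower in every NRF2 KO MR mouse than in any WT MR mouse, an order seen in 2.91% of all genes (-0.37 ± 0.06, adjusted p = 0.00119), and on Con it gave -0.16 ± 0.06, adjusted p = 0.214. In edgeR the unadjusted p was under 0.05 for 6 members and for 1851 of all 13336 genes, a similar share. Gbp2 was higher in every NRF2 KO MR mouse than in any WT MR mouse (1.69% of all genes) and missed the threshold (0.66 ± 0.20, adjusted p = 0.0801), and it was called without WT_CON_7603 (0.66, adjusted p = 0.0350). Oasl1 gave -0.78 ± 0.24, adjusted p = 0.0958. DESeq2 called 3 members on MR, Lgals3bp and Oasl1 lower and Gbp2 higher, where it called 496 of 15160 genes.

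The difference of the MR effects between the genotypes was called for 0 of 43 members in edgeR, DESeq2 and limma, where edgeR called 0.045% of all genes. The unadjusted p was under 0.05 for 3 members in each tool, and in edgeR these were Irf1, Gbp2 and Lgals3bp. In edgeR it was under 0.05 for 1008 of all 13336 genes, a similar share. The interaction was 0.69 for Gbp2 (95% interval 0.17 to 1.205), -0.20 for Lgals3bp (-0.38 to -0.03) and 0.48 for Irf1 (0.12 to 0.84), and the smallest adjusted p of the members was 0.509. Among members called in both genotypes, the interval included 0 for Rsad2 at 0.39 (-0.11 to 0.90) and for Ifit3 at 0.24 (-0.39 to 0.86). Without the library labelled WT_CON_7607, 0 members were called, with 0.80 for Gbp2 (adjusted p = 0.423) and 0.57 for Irf1 (adjusted p = 0.422). Members called in 1 genotype alone are not shown to differ between genotypes.

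The genes upstream of these members were taken from a list of the interferon pathway. None of the 11 interferon genes on the list was among the genes listed. Of 6 receptor chains 5 were listed, and 0 of these were called on MR in either genotype. None of the 10 negative regulators tested was called on MR. Of all genes tested, 13.8% were called on MR in WT and 12.6% in NRF2 KO. With so few genes in these lists, 0 calls do not show that they were unchanged.

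Of 13 tested genes of sensing and interferon induction, Irf5, a factor downstream of Toll-like receptors, fell in both genotypes (-0.96 ± 0.24, adjusted p = 0.0106 in WT and -0.81 ± 0.21, adjusted p = 0.0141 in NRF2 KO). Of 64 further interferon-stimulated genes that were tested, 20 fell in WT and 15 in NRF2 KO and 0 rose in either, with medians of -0.39 and -0.35. Of all genes tested, 6.91% fell in WT and 6.34% in NRF2 KO. Ly6e, a membrane-anchored inhibitor of viral fusion, gave -0.95 ± 0.17, adjusted p = 0.000658 in WT and -0.85 ± 0.15, adjusted p = 0.000846 in NRF2 KO. Ifitm3, which blocks viral entry from endosomes, gave -0.76 ± 0.14, adjusted p = 0.000741 and -0.64 ± 0.13, adjusted p = 0.00164. Lgals9, a galectin, gave -0.40 ± 0.10, adjusted p = 0.0105 and -0.45 ± 0.09, adjusted p = 0.00232. These last values come from the same mice as those of the members.

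Members with and without the ISRE letters were then set side by side. Of the 17 with a match, 10 fell in WT and 7 in NRF2 KO, with medians of -0.68 and -0.41. Of the 16 without one, 7 fell in WT and 9 in NRF2 KO, with medians of -0.46 and -0.43. Oasl1, which fell in both genotypes, had no ISRE match in its window, whereas Ddx58, Igtp and Irgm2 had one and were not called. Of the 8 members with a GAS match, 1 fell in WT and 1 in NRF2 KO, with medians of -0.23 and -0.21. Of the 25 without one, 16 fell in WT and 15 in NRF2 KO, with medians of -0.65 and -0.46. These counts describe the windows and were given no test, and of all genes tested 6.91% fell in WT and 6.34% in NRF2 KO.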

How the data were processed

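Liver RNA of 24 male mice was sequenced as QuantSeq 3′ libraries read from 1 end, with 1 library and 1 mouse per sample and 6 mice a group. The deposited counts are whole reads per gene. The deposited signal values were made by the authors from those counts, with a DESeq2 size factor for every mouse (largest relative deviation 9.9e-15). The submitters' processing notes name R 3.4.3 and DESeq2 1.18.1, and the aligner and annotation are not given in the sources used here.

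Raw counts went into edgeR 4.0.16 under R 4.3.3, with TMM scaling, its filter by expression and robust quasi-likelihood tests, in a model of 4 group means over 22 mice. The filter removed 1824 of 15160 genes. Log2 CPM had a prior count of 2. MR was set against Con in each genotype and NRF2 KO against WT on each diet, with the interaction, and calls were made at a Benjamini-Hochberg adjusted p under 0.05. Intervals of 95% come from the standard errors of the fit. Depth was 6197291 to 22068338 counts a mouse, and no pair of libraries of a group differed by sampling noise alone. The scripts were tested on simulated data.

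The members, roles, pathway genes and cell markers were chosen with earlier results of these data known. Full values are given for the 4 transcription factors and, in every other role group, for the 2 members with the largest MR effect averaged over genotypes and the 2 with the highest mean CPM (at least 1 CPM), and for members called between genotypes. The other members are given in short. Of the pathway list, up to 3 called genes per role are named, and 1 gene is not reported here. Promoters came from RefSeq and gene positions from GENCODE on GRCm38. Copies were sought as 50-base stretches that the last 500 bases of a member share with other genes. Alternatives were DESeq2 size factors, library size only, no filter beyond 1 count, at least 10 counts in every mouse, DESeq2 1.42.0, log2(value + 1) of the normalized values in limma 3.58.1, models of the compared groups alone, the full 24 mice, and each mouse left out in turn. Figures were drawn in Python 3.11.15 with matplotlib 3.10.9.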

Additional observations from a re-analysis of the deposited data

Results flagged for a closer look

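Oasl1 in mouse KO_CON_7617 (NRF2 KO, Con), at 8.54 CPM, lay far above the other 5 mice of its group, which ran from 4.51 to 5.54 CPM. It was the only such value among 100 groups looked at, of 25 genes in 4 groups, and chance alone singles out about 1 in 20 groups. Without that mouse the NRF2 KO Con level of Oasl1 was further below the WT Con level, with a log2 fold change of -0.95.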

How the results depend on the processing

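The median log2 fold change of the members on MR kept its direction under all alternatives in each genotype. Between the genotypes on MR it was -0.02 and its sign was not stable, with -0.092 to 0.13 when each mouse was left out and values above 0 with library size only, in limma and with all 24 mice. The medians of the type I-led members changed sign as well when each mouse was left out, for that comparison (-0.15 to 0.044) and for the interaction (-0.021 to 0.14). Members called on MR numbered 21 in WT, with 15 (only the groups compared) to 25 (DESeq2) under the other settings and 12 (without WT_MR_7609) to 25 (without WT_MR_7611) when each mouse was left out. In NRF2 KO they numbered 21, with 16 (library size only) to 23 and 17 to 22. Library size only moved the median of all genes to 0.09 in WT and 0.15 in NRF2 KO, with the members' medians at -0.39 and -0.27, and there Irf1 was called higher in NRF2 KO. Members called between the genotypes on Con numbered 0, against 3 in DESeq2, 1 with DESeq2 size factors, 1 with library size only, 1 with at least 10 counts in every mouse, 1 with all 24 mice, and 0 to 1 when each mouse was left out. On MR they numbered 1, against 2 with library size only, 3 in DESeq2, 3 with only the groups compared, and 1 to 2 when each mouse was left out. The interaction gave 0 under each alternative, and it could not be fitted with only the groups compared. The direction turned for Trim25 in WT with library size only (0.010) and for Ddx58 in WT without WT_CON_7607 (-0.046), where the values without 1 mouse ran from -0.046 to 0.12, and neither was called. The cause of these changes was not tested. Of 38 calls of the members chosen by rule for full values and of Irf5, Ly6e, Ifitm3 and Lgals9, 30 held in every fit without 1 mouse. Of these 38, 26 held under every alternative. Members given in short are not in that count. Over all members, 12 of 21 calls on MR held in every fit without 1 mouse in WT and 16 of 21 in NRF2 KO. No paired analysis was possible because the labels' numbers are mouse numbers that the groups do not share. At a depth of 6197291 to 22068338 counts, Gbp6 had 0 to 8 counts a mouse and did not pass edgeR's filter.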
